A study of Mus musculus with 8 samples.

Results

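The MHC class II genes H2-Aa, H2-Ab1, H2-Eb1, H2-DMa, H2-DMb1, Cd74 and Ciita and the paired genes Tmem176a and Tmem176b were followed in mouse aorta during and after an infusion of angiotensin II (AngII). They are 9 of the 35896 genes in the table of counts, they were taken by symbol, and all 9 were among the 17182 genes with enough counts to be tested. Tmem176a belonged to the genes with the strongest evidence of a difference between AngII and CTRL, so that the group was chosen in part by its counts in those libraries. AngII against CTRL is therefore described for the 9 genes without a test, and the comparisons that follow the infusion are tested.

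Whole aortic tissue of male C57BL6 mice was sequenced as 8 libraries, 2 in each of 4 groups, and each library pooled 2 mice, which makes 16 mice. In the AngII group, osmotic minipumps implanted at 11 weeks of age delivered 2.8 mg/kg/day of AngII for 2 weeks, and the aorta was taken at the end of the infusion. For AngII+2W and AngII+3W mice the same infusion was followed by 2 or 3 weeks without AngII. CTRL mice were untreated littermates of matched age. The labels name no transgene or deletion in any group. By the study's description control mice were killed at each of the time points, and the labels do not say which of them the 2 CTRL libraries hold. The spread between the 2 pools of a group, taken over the 4 groups together, is the only measure of error. Totals lay between 18130441 and 21498200 counts per library, where 3 counts were taken as the floor of detection. Markers of smooth muscle, the main cell of the aortic wall, were abundant in every library (8 genes, summed level 1760 to 9520 counts per 1000000 counts, CPM). One AngII+3W library stood apart. Skeletal muscle markers summed to 1640 CPM in its replicate 1, against 10.2 CPM in replicate 2 and 3.92 to 74 CPM in the other groups, and cardiac muscle markers reached 6370 CPM in it, against 492 CPM in replicate 2 and 85.1 to 5600 CPM in the other groups.

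MHC class II molecules carry peptides from ingested material to the cell surface, where CD4 T cells read them. Their alpha and beta chains are built with the invariant chain Cd74, which blocks the groove until the peptide-exchange molecule H2-DM helps an antigenic peptide to bind. Dendritic cells, B cells and macrophages make most class II, and the transactivator Ciita, which does not bind DNA itself, sets its level together with RFX, CREB and NF-Y proteins seated on the X and Y boxes of the promoters. Tmem176a and Tmem176b are related membrane proteins of intracellular vesicles with cation channel activity. They are known from dendritic cells and type 17 lymphoid cells, and Tmem176b has been linked to restraint of the NLRP3 inflammasome.

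H2-DMa, H2-DMb1, H2-Ab1, H2-Aa and H2-Eb1 lie together on chromosome 17, within 197134 bases (chr17:34119541-34316674, GRCm38). Ciita lies on chromosome 16 (chr16:10480059-10528418, plus strand). Tmem176a (chr6:48840919-48847071, plus strand) and Tmem176b (chr6:48833818-48841496, minus strand) start next to each other on chromosome 6 and run in opposite directions, and their gene models share 578 bases on opposite strands. The strand setting of the counting is not given in the sources used here, so that reads from those shared bases cannot be assigned with certainty. Among the 9 genes, H2-DMb1 was the only one with a near copy at 90% identity or more. Its copy H2-DMb2 matched it at 95.7% identity over 77.0% of the transcript, so that counts may be split between the 2 genes.

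Promoter windows of RefSeq (GRCm38.p6, 250 bases before to 50 bases after the transcript start) were found for 6 of the 9 genes: H2-Aa, H2-Eb1, H2-DMa, H2-DMb1, Tmem176a and Tmem176b. The 150 bases before the start of H2-Eb1 (chr17:34305717-34305866, plus strand) and H2-Aa (chr17:34287824-34287973, minus strand) are shown because they hold the Y box, a site of NF-Y, and because these genes were among the most abundant of the group. Capitals mark, in the order of reading, a run of letters shared with H2-DMb1, the Y box and a further CCAAT in H2-Eb1, and the Y box in H2-Aa.
H2-Eb1: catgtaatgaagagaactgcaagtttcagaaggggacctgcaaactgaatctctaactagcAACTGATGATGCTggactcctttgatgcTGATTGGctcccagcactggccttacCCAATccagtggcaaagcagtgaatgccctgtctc
H2-Aa: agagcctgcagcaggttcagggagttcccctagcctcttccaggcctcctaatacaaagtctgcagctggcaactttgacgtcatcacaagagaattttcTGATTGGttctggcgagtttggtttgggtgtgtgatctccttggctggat

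Both strands of every window were searched for 3 runs of letters, which were chosen with these windows in view. The Y box TGATTGG was found in 7.82% of 32851 windows and the CCAAT box CCAAT in 37.4%. The Y box holds a CCAAT read on the other strand, so that these matches overlap. The third run, AACTGATGATGCT, is the longest that the windows of H2-Eb1 and H2-DMb1 have in common, and it lies before the Y box, where class II promoters hold their X box. It was present in both by the way it was chosen, and in 3 windows in all (0.00913%). In H2-Eb1 this run ended 15 bases before the Y box, and in H2-DMb1 it ended 16 bases before it. The window of H2-Aa held the Y box without the run. Since the run is an exact string from the windows of H2-Eb1 and H2-DMb1, its absence does not show that H2-Aa lacks an X box. A window of H2-DMa held a lone CCAAT at -198 to -194 from the start, read on the other strand. The windows of Tmem176a and Tmem176b held none of the 3 runs. A match is a description of the letters, and no binding was measured here.

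Per kilobase of the longest coding transcript, the invariant chain was the most abundant of the 9 genes in CTRL aorta, and the transactivator the least. Mean levels in CTRL were 105 CPM per kilobase for Cd74, 62.8 for H2-Aa, 42.1 for H2-Ab1, 33.6 for H2-Eb1, 12.5 for Tmem176b, 7.63 for Tmem176a, 5.23 for H2-DMb1, 3.32 for H2-DMa and 1.68 for Ciita (n = 2 each). In AngII the order was the same, from 165 CPM per kilobase for Cd74 to 3.37 for Ciita. Levels in the following paragraphs are CPM of the whole gene, which compare libraries and not genes.

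Among the chains that present peptide, H2-Aa, the I-A alpha chain, was measured at 73.8 and 67.9 CPM in CTRL, at 108 and 117 CPM with AngII, at 98.3 and 80.2 CPM in AngII+2W and at 47.4 and 115 CPM in AngII+3W. Both AngII and both AngII+2W libraries lay above CTRL, while the AngII+3W libraries lay on either side of it. H2-Ab1, the I-A beta chain, was at 48.0 and 54.0 CPM in CTRL, at 75.4 and 83.8 CPM with AngII, at 66.1 and 56.5 CPM in AngII+2W and at 32.5 and 78.7 CPM in AngII+3W. For H2-Eb1, the I-E beta chain, the libraries stood at 55.8 and 56.4 CPM in CTRL, at 86.4 and 91.6 CPM with AngII, at 74.7 and 67.3 CPM in AngII+2W and at 41.6 and 95.6 CPM in AngII+3W. The 3 chains kept nearly constant proportions. The ratio of H2-Ab1 to H2-Aa lay between 0.651 and 0.794 in the 8 libraries, and that of H2-Eb1 to H2-Aa between 0.756 and 0.876. The I-E alpha chain H2-Ea, which mice of this strain are known not to express, had 0 counts in every library.

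The genes that assemble and load class II molecules showed the same arrangement. Cd74 was measured at 152 and 145 CPM in CTRL, at 229 and 237 CPM with AngII, at 196 and 175 CPM in AngII+2W and at 99.6 and 210 CPM in AngII+3W. H2-DMb1, the beta chain of the peptide-exchange molecule, was at 6.87 and 7.81 CPM in CTRL, at 12.6 and 13.8 CPM with AngII, at 9.80 and 7.89 CPM in AngII+2W and at 4.84 and 11.2 CPM in AngII+3W. Its partner H2-DMa showed the smallest difference in AngII, and was at 6.53 and 6.77 CPM in CTRL, at 8.10 and 10.1 CPM with AngII, at 7.23 and 8.0 CPM in AngII+2W and at 4.78 and 10.6 CPM in AngII+3W. In the 3 genes the AngII+2W libraries again lay above both CTRL libraries (7.89 against 7.81 CPM at the closest, in H2-DMb1), and AngII+3W held both a value below CTRL and one above it.

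The transactivator Ciita was measured at 9.55 and 10.6 CPM in CTRL, at 20.8 and 19.7 CPM with AngII, at 12.2 and 10.6 CPM in AngII+2W and at 8.82 and 20.9 CPM in AngII+3W. AngII+3W replicate 2 thus lay at the level of the AngII libraries and replicate 1 below CTRL. The lower AngII+2W library lay above the higher CTRL library by less than the rounding of these values. The levels of Ciita rest on 164 to 415 counts per library.

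Tmem176a was measured at 11.4 and 12.1 CPM in CTRL, at 36.2 and 39.4 CPM with AngII, at 17.1 and 15.9 CPM in AngII+2W and at 15.2 and 13.4 CPM in AngII+3W. Every library after the infusion lay above both CTRL libraries and below both AngII libraries. Tmem176b was at 19.9 and 21.5 CPM in CTRL, at 50.4 and 53.8 CPM with AngII, at 29.6 and 23.3 CPM in AngII+2W and at 19.6 and 22.5 CPM in AngII+3W, where the CTRL and AngII+3W libraries overlapped. Tmem176a stood at 0.574 and 0.564 times the level of Tmem176b in CTRL and at 0.719 and 0.732 times in AngII. After the infusion this ratio ran from 0.577 to 0.775, and the 2 AngII+3W libraries held 0.775 and 0.596.

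**Figure D1:**
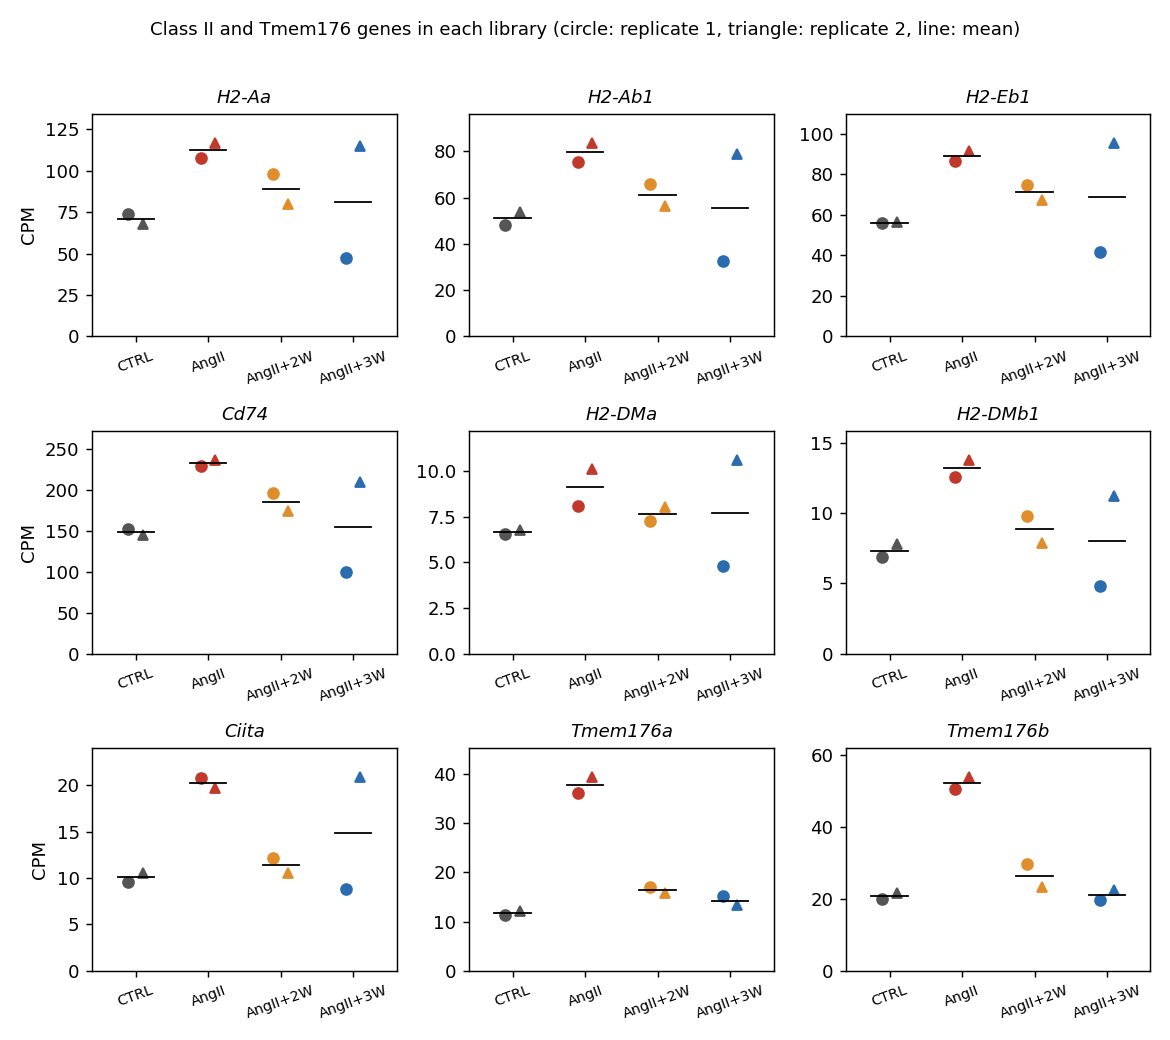
Level of each of the 9 genes (vertical axis, CPM from 0) in the 8 libraries by group, with circles for replicate 1, triangles for replicate 2 and a line at the group mean. In AngII+3W the 7 class II genes spread widely (H2-Aa 47.4 and 115 CPM), whereas Tmem176a (15.2 and 13.4 CPM) and Tmem176b (19.6 and 22.5 CPM) do not.

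Compared with CTRL, the AngII libraries were higher for all 9 genes with no overlap, as were those of 24.4% of all genes tested. The estimated difference (log2 fold change ± SE) was largest for Tmem176a at 1.69 ± 0.137 and Tmem176b at 1.33 ± 0.152, which are levels 3.22 and 2.52 times those of CTRL. Among the class II genes, Ciita stood at 1.00 ± 0.346 and H2-DMb1 at 0.84 ± 0.346, followed by H2-Eb1 at 0.67 ± 0.323, H2-Aa at 0.66 ± 0.349, Cd74 at 0.65 ± 0.298, H2-Ab1 at 0.64 ± 0.346 and H2-DMa at 0.45 ± 0.337. The median was 0.66 over the 7 class II genes, 1.51 over the Tmem176 pair, and -0.01 over all genes tested.

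The threshold of FDR 0.05 was passed by Tmem176a and Tmem176b, 2 of the 9 genes, against 5.1% of all genes (2.9% higher and 2.2% lower). This count is given as a description, and it depended on the other libraries in the fit, which share 1 estimate of the spread. It was 7 of 9 (6.93% of all genes) when only the CTRL and AngII libraries were fitted, and 8 of 9 when AngII+3W replicate 1 (8.48%) or replicate 2 (8.35%) was left out. It was 1 of 9 (0.162%) without CTRL replicate 1 and 0 of 9 (0%) without AngII replicate 2.

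**Figure D2:**
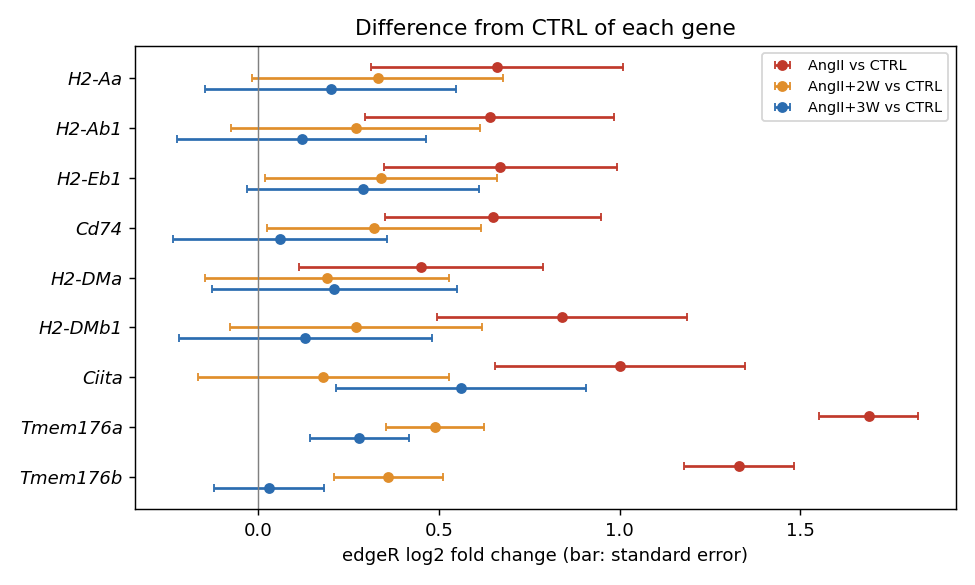
Difference of each gene from CTRL (horizontal axis, edgeR log2 fold change, with bars of 1 standard error) for AngII, AngII+2W and AngII+3W, which share the CTRL libraries. The points for AngII lie farthest to the right in all 9 genes, with Tmem176a at 1.69, and bars are wider for the class II genes than for the Tmem176 pair.

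After the infusion ended, the 9 genes were compared with CTRL to ask whether a difference remained, and in AngII+2W no gene passed the threshold. In AngII+2W, 0 of the 9 genes were called by edgeR's quasi-likelihood test, as were 0% of all genes. At an unadjusted p below 0.05 there were 2, Tmem176a and Tmem176b, where 4.52% of all genes were higher. DESeq2, edgeR's likelihood ratio test and limma-voom called 0 of the 9 too, and 373, 420 and 0 of all genes. Tmem176a stood 0.49 ± 0.136 above CTRL on the log2 scale (FDR 0.301) and Tmem176b 0.36 ± 0.151 above it (FDR 0.461). Estimates for the 7 class II genes ran from 0.18 ± 0.347 for Ciita to 0.34 ± 0.322 for H2-Eb1, with FDR between 0.767 and 0.908. All 9 genes had both AngII+2W libraries above both CTRL libraries, as had 21.7% of all genes. The median over the 9 was 0.32, against 0 over all genes, and it was 0.17 without AngII+2W replicate 1 and 0.41 without replicate 2. Across all libraries left out in turn, H2-DMb1 ran from 0.09 to 0.41 and Tmem176b from 0.16 to 0.51. These comparisons use the CTRL libraries that also took part in the choice of Tmem176a.

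In AngII+3W, edgeR called 0 of the 9 genes against CTRL (0.285% of all genes). At an unadjusted p below 0.05 there were 0 (5.34% of all genes higher, 7.18% lower). DESeq2, the likelihood ratio test and limma-voom called 0 of the 9, and 585, 556 and 44 of all genes. Ciita was estimated at 0.56 ± 0.346 (FDR 0.555), H2-Eb1 at 0.29 ± 0.322 (FDR 0.758), Tmem176a at 0.28 ± 0.137 (FDR 0.449), Cd74 at 0.06 ± 0.297 (FDR 0.954) and Tmem176b at 0.03 ± 0.152 (FDR 0.96). Libraries without overlap were found for Tmem176a alone among the 9, while 19.8% of all genes were higher in this way. Standard errors were 0.297 to 0.35 for the class II genes and 0.137 and 0.152 for the Tmem176 pair. With 2 libraries a group, even a difference of several SE could miss the threshold. Tmem176a did so in AngII+2W (0.49 ± 0.136, FDR 0.301).

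AngII+3W against AngII+2W is the one comparison that shares no library with the choice of Tmem176a. It called 0 of the 9 genes by edgeR (0% of all genes) and 0 at an unadjusted p below 0.05 (4.62% of all genes higher, 4.22% lower). DESeq2, the likelihood ratio test and limma-voom called 0 of the 9, and 221, 273 and 0 of all genes. Tmem176b was estimated at -0.33 ± 0.152 (FDR 0.581), Tmem176a at -0.21 ± 0.136 (FDR 0.711) and Ciita at 0.38 ± 0.345 (FDR 0.802). Both AngII+3W libraries lay below both AngII+2W libraries for Tmem176a and Tmem176b, which 19.7% of all genes did. Without AngII+3W replicate 2 the count was 4 of 9, against 2.42% of all genes, and the 4 were H2-Aa, H2-Ab1, H2-Eb1 and Cd74 (FDR 0.0422, 0.0385, 0.0385 and 0.0306), all lower in the remaining library. The lone library was assumed to vary like the other groups.

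Against AngII itself, whose libraries took part in the choice, the levels after the infusion are a description. Both AngII+2W libraries were lower than both AngII libraries for all 9 genes (27.5% of all genes), by -1.2 ± 0.135 for Tmem176a, -0.98 ± 0.151 for Tmem176b and -0.83 for Ciita on the log2 scale, and by -0.26 to -0.57 for the 6 other class II genes. In AngII+3W this held for 4 genes (24.2% of all genes), with -1.40 ± 0.136 for Tmem176a and -1.31 ± 0.153 for Tmem176b. The others were Cd74 at -0.59 and H2-DMb1 at -0.72, which stood at -0.14 and -0.23 without AngII+3W replicate 1 and at -1.27 and -1.49 without replicate 2. Over the 9 genes the median was -0.52 with both libraries, -0.01 without replicate 1 and -1.29 without replicate 2.

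The 2 AngII+3W libraries disagreed on class II and agreed on Tmem176. In replicate 2 the 7 class II genes stood at 2.11 (Cd74) to 2.43 (H2-Aa) times their level in replicate 1, whereas the ratio was 0.879 for Tmem176a and 1.14 for Tmem176b. In the 3 other groups the same ratio lay between 0.787 and 1.25 for each of the 9 genes. At least a 2-fold higher level in AngII+3W replicate 2 was seen in 7 of the 9 genes and in 2.19% of all genes. Summed over the 7 genes, class II reached 239 CPM in AngII+3W replicate 1, below every other library, and 542 CPM in replicate 2, within the range of AngII (540 and 572 CPM). CTRL held 353 and 348 CPM and AngII+2W 464 and 406 CPM.

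**Figure D3:**
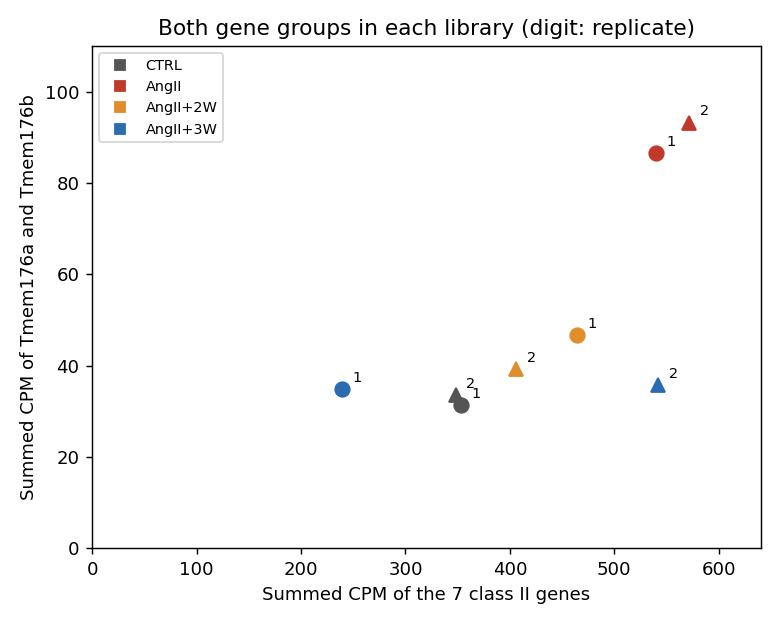
Summed level of the 7 class II genes (horizontal axis, CPM) against that of Tmem176a and Tmem176b (vertical axis, CPM), 1 point per library, coloured by group with the replicate number beside it. The AngII+3W libraries differ along the horizontal axis (239 and 542 CPM) and lie at almost the same height (34.8 and 35.8 CPM), and the AngII libraries stand highest on the vertical axis (86.6 and 93.2 CPM).

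Which AngII+3W library was kept decided the direction of the class II differences from CTRL. Without replicate 1, the estimates ran from 0.50 (Cd74) to 1.05 (Ciita), with FDR of 0.111 to 0.367. Without replicate 2, they ran from -0.71 (H2-Ab1) to -0.25 (Ciita), with FDR of 0.0894 to 0.564. Tmem176a kept its sign, at 0.18 and 0.32, while Tmem176b did not, at 0.12 without replicate 1 and -0.13 without replicate 2. Several marker lists differed between these libraries. Skeletal and cardiac muscle markers stood high in replicate 1, as given above, though cardiac markers were also at 5600 CPM in CTRL replicate 1. Fibroblast markers summed to 1910 CPM in replicate 1, below every other library, and to 5110 CPM in replicate 2, and smooth muscle markers to 1920 and 3390 CPM. B cell markers summed to 29.9 CPM there and 14.8 CPM in replicate 2. Leukocyte markers summed to 129 and 165 CPM, macrophage markers to 304 and 502 CPM, and dendritic cell markers to 80.1 and 84.6 CPM. Their part in the result was not tested.

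Over the 8 libraries the class II genes moved closely with each other. Pearson's r of log2(CPM + 0.5) was 0.842 to 0.988 over the 21 pairs of class II genes (median 0.948), 0.971 between Tmem176a and Tmem176b, and 0.422 to 0.815 over the 14 pairs that take 1 gene from each set (median 0.674). The points share their libraries and groups, and these values are a description. The genes most like the mean profile of the 7 class II genes, out of 15150 with a mean of at least 1 CPM, were Eif2ak3 (r = 0.976), Samd14 (0.974), Tshz2 (0.962), Il17rc (0.961) and Exoc4 (0.955). For the Tmem176 pair they were Cdk1 (0.990), Cd300ld3 (0.987), Mmp19 (0.986), Sned1 (0.985) and Spc25 (0.984), of which Cdk1 and Spc25 serve cell division. Counts per library were low for Cdk1 (20 to 107) and Spc25 (6 to 63). Each gene named for the pair was highest in both AngII libraries, which took part in the choice of Tmem176a.

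Other genes of the class II pathway were tested in AngII against CTRL, and 3 of 17 rose, where 2.9% of all genes did. All 3 act in the endosome, where antigen and the invariant chain are cut. The cysteine protease Ctss was measured at 17.5 and 14.3 CPM in CTRL and 39.7 and 88.4 CPM in AngII (log2 fold change 2.01 ± 0.371, FDR 0.0273). The asparaginyl protease Lgmn was at 50.6 and 47.7 CPM in CTRL and 93.9 and 133 CPM in AngII (1.2 ± 0.177, FDR 0.0157). The thiol reductase Ifi30 was at 9.50 and 10.1 CPM in CTRL and 18 and 31.0 CPM in AngII (1.33 ± 0.296, FDR 0.0468). The groups did not overlap in any of the 3, which were picked by passing in these same libraries, and 24.4% of all genes were higher in this way. The protease Ctsl (0.67 ± 0.157, FDR 0.0554) and the ubiquitin ligase Marchf1, which takes class II off the surface (1.22 ± 0.331, FDR 0.0807), lay just outside the threshold.

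The DNA-binding partners of Ciita lay near 0 in AngII against CTRL. Rfx5 was estimated at 0.00 ± 0.211 (FDR 0.995), and the estimates were 0.07 for Rfxap, 0.09 for Rfxank, 0.05 for Creb1, 0.05 for Nfya, 0.13 for Nfyb and 0.03 for Nfyc. H2-DMb2, the near copy of H2-DMb1, stood at -0.16 ± 0.352 (FDR 0.849), and H2-Ob, a chain that holds back peptide exchange, at 0.25 ± 0.299 (FDR 0.713). H2-Eb2 and H2-Oa had too few counts to be tested. Estimates below 0 were those of H2-DMb2 and of Marchf8, a ubiquitin ligase, at -0.18 ± 0.12 (FDR 0.476), and the median over the 17 genes was 0.13. Their count was not robust to single libraries, with 0 called without CTRL replicate 1, CTRL replicate 2 or AngII replicate 2, and 1 (Lgmn) without either AngII+2W library. In AngII+2W and AngII+3W against CTRL 0 of the 17 were called by edgeR, DESeq2, the likelihood ratio test or limma-voom, with 0 and 1 at an unadjusted p below 0.05.

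Lists of related pathways were read in the same comparison. Of all genes, 10.9% were higher and 9.29% lower there at an unadjusted p below 0.05. In either direction DESeq2 called 1588 of all genes, the likelihood ratio test 1711 and limma-voom 840. Of 15 genes of MHC class I presentation, all 15 estimates lay above 0 with a median of 0.24, and edgeR called 0 (4 at an unadjusted p below 0.05, 1 by DESeq2, 1 by the likelihood ratio test and 0 by limma-voom). The heavy chains H2-K1 and H2-D1 stood at 0.25 ± 0.207 and 0.27 ± 0.212, and Nlrc5, the transactivator of class I, at 0.55 ± 0.227 (FDR 0.231). Of 6 costimulatory genes edgeR called 0 (2 unadjusted, 1 by the likelihood ratio test, 0 by DESeq2 and limma-voom), with Cd80 at 1.36 ± 0.398 (FDR 0.1), Cd86 at 0.90 ± 0.288 (FDR 0.128) and Cd40 at 0.06 ± 0.197 (FDR 0.905). Of 14 tested genes of interferon gamma signalling, which induces Ciita in many cells, 1 rose, the transcription factor Irf8 (1.59 ± 0.275, FDR 0.0228), and the list's median was 0.15. Ifng, the gene of the cytokine itself, had too few counts to be tested.

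Genes near Tmem176 in function or structure were read next. The inflammasome list held 10 tested genes with a median of 0.80 and all estimates above 0, and edgeR called 0 (8 unadjusted, 3 by DESeq2, 3 by the likelihood ratio test and 0 by limma-voom). Nlrp3 stood at 1.36 ± 0.455 (FDR 0.143). In the Ms4a family, which shares its membrane topology with the Tmem176 proteins, 2 of 12 genes rose, Ms4a7 at 2.22 ± 0.318 (FDR 0.0151) and Ms4a14 at 2.28 ± 0.457 (FDR 0.0357). The Ms4a list had a median of 1.30, and 7 of its genes passed unadjusted, 6 by DESeq2, 6 by the likelihood ratio test and 4 by limma-voom. Of 4 tested genes of type 17 lymphoid cells edgeR and limma-voom called 0, with 1 unadjusted, 1 by DESeq2 and 1 by the likelihood ratio test. The cytokines Il17a and Il22 had 0 counts in every library.

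Markers of leukocytes moved together with the 9 genes in AngII. In bulk tissue, more cells of a type and more RNA per cell cannot be told apart. Of 8 leukocyte genes 4 rose, including Ptprc, which encodes CD45 (1.30 ± 0.177, FDR 0.0125), and Cd53 (1.79 ± 0.26, FDR 0.0156). Of 16 macrophage genes 6 rose, including Cd68 (2.13 ± 0.359, FDR 0.021) and Adgre1 (1.82 ± 0.328, FDR 0.0258), while Csf1r stood at 1.39 ± 0.345 (FDR 0.0644). Of 12 dendritic cell genes 4 rose, including Flt3 (1.57 ± 0.293, FDR 0.0287) and Clec10a (1.52 ± 0.305, FDR 0.0357), while Itgax stood at 1.30 ± 0.608 (FDR 0.286). No gene of these lists passed the threshold in the other direction. Among estimates below 0 were those of the macrophage genes Mertk (-0.85 ± 0.26, FDR 0.111) and Timd4 (-0.55 ± 0.388, FDR 0.493) and of the dendritic cell list's Siglech (-0.14) and Ccr7 (-0.12). Of all genes, edgeR called 2.9% higher. DESeq2 called 8 leukocyte, 11 macrophage and 4 dendritic cell genes, the likelihood ratio test 7, 11 and 4, and limma-voom 4, 6 and 3. Over all genes these 3 tools called 1588, 1711 and 840 in either direction. Of 10 B cell genes and 10 T cell genes edgeR, DESeq2, the likelihood ratio test and limma-voom called 0, with 1 unadjusted in each list. The T cell receptor component Cd3e stood at -0.06 ± 0.431 (FDR 0.956).

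Against the leukocyte list, class II and Tmem176 took different shares. The summed class II level was 2.68 and 2.70 times that of the leukocyte list in CTRL, 2.16 and 1.39 times with AngII, 2.81 and 2.17 times in AngII+2W, and 1.86 and 3.29 times in AngII+3W. Both AngII libraries lay below both CTRL libraries in this ratio to the leukocyte list. Against the macrophage list the class II ratio was 0.621 and 0.956 in CTRL and 0.608 and 0.493 with AngII. No ratio was taken to the dendritic cell list, which summed to 67.2 and 76.5 CPM in CTRL and 102 and 110 CPM with AngII. Class II itself summed to 353 and 348 CPM in CTRL and 540 and 572 CPM with AngII. For the Tmem176 pair the ratio to the leukocyte list was 0.238 and 0.26 in CTRL and 0.346 and 0.227 in AngII, which overlap. The ratio of the Tmem176 pair to class II was 0.0886 and 0.0963 in CTRL and 0.16 and 0.163 with AngII. It was 0.101 and 0.0965 at 2 weeks and 0.145 and 0.0662 at 3 weeks after the infusion. AngII replicate 2, with 411 CPM of leukocyte markers against 250 CPM in replicate 1, held nearly the same class II sum. In AngII replicates 1 and 2 the macrophage list stood at 889 and 1160 CPM, the dendritic cell list at 102 and 110 CPM, and the B cell list at 17.5 and 19.9 CPM. The part of these cells in the levels of the 9 genes was not tested.

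**Figure D4:**
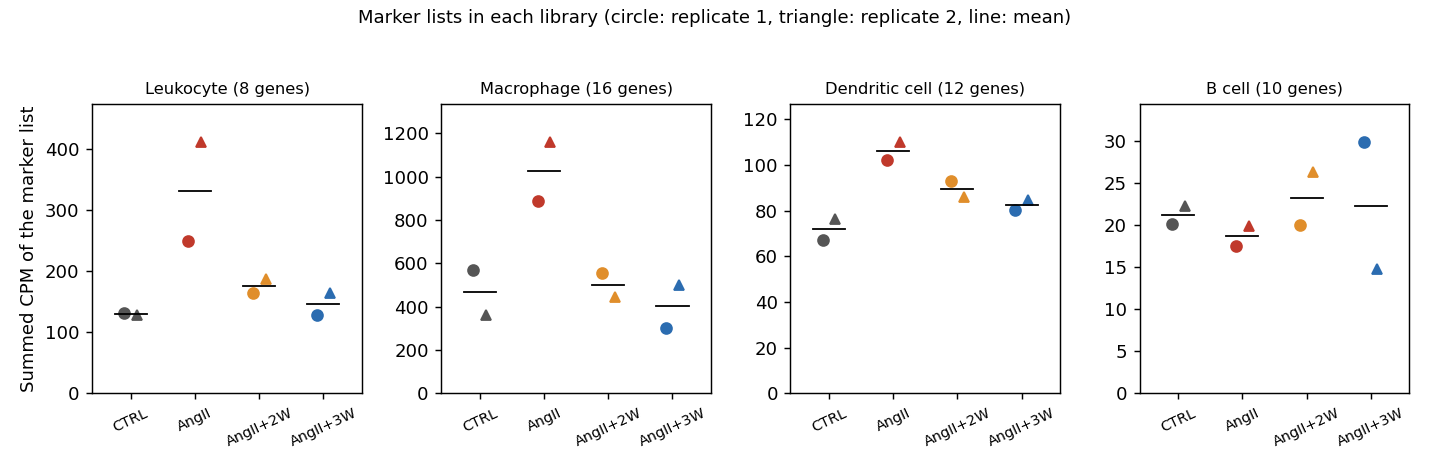
Summed level (vertical axis, CPM from 0, a scale of its own in each panel) of leukocyte, macrophage, dendritic cell and B cell markers in the 8 libraries by group, with circles for replicate 1, triangles for replicate 2 and a line at the mean. The first 3 lists are highest in AngII (leukocyte 250 and 411 CPM), and the B cell list is not (17.5 and 19.9 CPM, against 20.2 and 22.3 CPM in CTRL).

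Genes of the vessel wall changed in AngII too, and all CPM of a library share 1 total. Of 8 smooth muscle genes 6 fell, with a median of -2.17, including Acta2 (-2.18 ± 0.3, FDR 0.0133) and Myh11 (-2.26 ± 0.351, FDR 0.0172). Of 8 fibroblast genes 2 passed the threshold, the matrix genes Lum and Col1a1. All 8 fibroblast estimates lay above 0 with a median of 1.46. There were 6 unadjusted, 5 by DESeq2, 6 by the likelihood ratio test and 2 by limma-voom. Pecam1, a marker of endothelium, stood at -0.12 ± 0.185 (FDR 0.775). In AngII+3W against CTRL the smooth muscle genes Acta2 (-2.56 ± 0.305, FDR 0.0455), Tagln (-2.09 ± 0.281, FDR 0.0455) and Cnn1 fell. No gene of the whole table passed this comparison with only the 2 groups compared, without CTRL replicate 1, or without any 1 of the AngII and AngII+2W libraries, while 1 passed with library totals alone, 1 without AngII+3W replicate 1 and 4 with the replicate block, against 49 with all libraries. Other alternatives called more of the whole table in AngII+3W, with 585 genes by DESeq2 and 556 by the likelihood ratio test. The count was 200 with every gene of at least 1 count, 119 with at least 10 counts in every library, and 44 with limma-voom. Of the 8 smooth muscle genes, DESeq2 and the likelihood ratio test each called 6 there, and limma-voom 3. In AngII+2W edgeR and limma-voom called 0 of the 8, against 5 by DESeq2, 5 by the likelihood ratio test and 7 unadjusted. The leukocyte, macrophage and dendritic cell lists had 0 calls by edgeR in AngII+2W and AngII+3W. Unadjusted they had 1, 2 and 1 in AngII+2W and 1 each in AngII+3W, and DESeq2 and the likelihood ratio test each called 1 dendritic cell gene in AngII+2W and 0 otherwise.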

How the data were processed

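The 8 aortic RNA-sequencing libraries were placed in 4 groups by their labels. The authors depleted ribosomal RNA, ran Salmon within ARMOR and obtained gene sums with tximeta. The deposited table holds expected counts as whole numbers, without normalization, and no column of it was left unused. The 9 genes and all lists were chosen with earlier results of these data known.

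Genes were tested with edgeR 4.0.16 (R 4.3.3): filterByExpr, TMM normalization and the quasi-likelihood F test in its older form. All 8 libraries were fitted with 1 coefficient per group, which leaves 4 residual degrees of freedom. Two-sided p-values were adjusted over 17182 genes by the Benjamini-Hochberg method (FDR, threshold 0.05). SE is the absolute log2 fold change divided by the square root of F. No exact permutation test was run, since with 2 libraries against 2 its smallest p is 0.33. CPM use TMM-scaled library sizes. Likeness to a profile was Pearson's r of log2(CPM + 0.5). The scripts were tested on simulated data with known changes.

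The text names the 9 genes, genes of the class II, costimulation and class I lists, defining cell type markers, the 2 called genes of smallest p in each direction of every other list, and the 5 genes most like each profile. 1 of the defining markers is not reported here. Cnn1 in AngII+3W, Nlrp3, Mertk, Timd4, Siglech, Ccr7, Il17a, Il22 and Ifng were named after their values were seen. Alternatives were other scalings and filters, DESeq2 1.42.0, the likelihood ratio test, limma-voom 3.58.1, the newer quasi-likelihood fit, fitting only the 2 groups compared, a replicate block, and leaving out each library. Near copies were searched with BLAST 2.17.0 among GRCm38 transcripts. In place of an X box motif set beforehand, the letters searched were the longest run common to the H2-Eb1 and H2-DMb1 windows.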

Additional observations from a re-analysis of the deposited data

How the results depend on the processing

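With 2 pools a group, p-values rest on a spread estimated over the pools of all groups fitted, and a group's value can rest on 1 pool. The scalings, filters, other tests, the replicate block and the fit of only the 2 groups compared kept the sign and the side of the threshold of 265 values of the 9 genes in the 3 tested comparisons, and 5 changed sign. These were H2-Ab1 at -0.01 and Cd74 at -0.04 in AngII+3W against CTRL with limma-voom, and H2-DMa in AngII+3W against AngII+2W at -0.01 with library totals alone, -0.09 with limma-voom and -0.05 with the replicate block. The cause was not tested. In AngII+2W and AngII+3W against CTRL, 0 of the 9 were called under each alternative and each library left out. In AngII against CTRL, 7 were called with only the 2 groups compared, and 0 to 8 when a library was left out, where the median of the 9 lay between 0.62 and 0.73. The other class II pathway genes called in AngII numbered 6 with DESeq2, 5 with the likelihood ratio test, and 0 to 4 with a library left out.

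Replicate numbers do not mark shared mice. Differences between the replicates of 2 groups correlated at 0 to 0.37, and with the replicate block the calls among the 9 numbered 0 in AngII+2W and in AngII+3W against CTRL and 0 between those 2 groups, with 2 in AngII, 3 other pathway genes and a median of 0.66.

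With a library left out, AngII+3W against AngII+2W called 0 to 4 of the 9. The values against CTRL then ran from -0.63 to 0.69 for H2-Aa, -0.71 to 0.62 for H2-Ab1, -0.49 to 0.77 for H2-Eb1, -0.63 to 0.50 for Cd74, -0.53 to 0.67 for H2-DMa, -0.66 to 0.60 for H2-DMb1, -0.25 to 1.05 for Ciita and -0.13 to 0.12 for Tmem176b in AngII+3W. Against AngII+2W they ran from -0.96 to 0.37 for H2-Aa, -0.96 to 0.36 for H2-Ab1, -0.82 to 0.43 for H2-Eb1, -0.95 to 0.18 for Cd74, -0.72 to 0.47 for H2-DMa, -0.92 to 0.33 for H2-DMb1 and -0.42 to 0.87 for Ciita. In each range for a class II gene, 1 end comes from leaving out AngII+3W replicate 1 and the other from leaving out replicate 2.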
